A study of Mus musculus with 2 samples.

Results

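Known target genes of the transcription factor p53, 10 in all, were followed through the cells of mouse colon adenomas: Cdkn1a, Ccng1, Phlda3, Eda2r, Ddit4l, Mdm2, Fas, Aen, Bax and Trp53inp1. They were given as a list by name, and all 10 were found among the 21041 genes of the deposited matrix. The study profiled single cells of distal colon adenomas from mice of the strain Apcmin;LSL-mTERT at 25 weeks of age, with droplet libraries from one G4+T and one G0+T adenoma sample. Apcmin is a truncating allele of the tumour suppressor Apc that gives intestinal adenomas, and LSL-mTERT is a mouse Tert allele behind a removable stop cassette; both groups carry both alleles, and the labels used here do not name what removes the cassette or how many animals were pooled. The authors' files give each cell a class, CIN_high or CIN_low, a cell type and, for epithelial cells, a subtype.

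The class and the library are the same split. All 6189 CIN_high cells carry the barcode suffix of one library and all 7908 CIN_low cells that of the other. The cell names all begin with G0, which conflicts with the suffixes, so no cell was assigned to G4+T or G0+T and the comparison is between the CIN_high and the CIN_low library. With 1 library a class there is no replicate: class, animal and library preparation cannot be told apart, no p-value is given, and every interval covers counting error only. The median epithelial cell held 14032.5 UMIs (molecules counted) if CIN_high and 15364 if CIN_low, and the median mitochondrial share of UMIs was 12.02% in CIN_high and 10.3% in CIN_low cells. The 9 epithelial markers summed to 101 and 94.7 UMIs per 10000 in those cells, against 4.09 at most in any other type. Barcodes found in both libraries numbered 11, and 7 of the cells that carry them were epithelial.

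p53 is held low in unstressed cells by Mdm2, a ubiquitin ligase that is itself a p53 target. DNA damage and other stresses free p53 to bind paired half-sites in DNA and raise genes for cell cycle arrest, growth control and cell death. In intestinal epithelium p53 is known for arrest and death after damage, and uncapped telomeres are one source of such damage.

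The promoter windows show where p53 half-sites stand in the genes whose levels are given here. RefSeq windows of 250 bases before to 50 after the start site (GRCm38.p6) were found for 9 of the 10 genes; there was none for Trp53inp1. Each window was searched for the p53 site, a pair of 10-base half-sites with 0 to 13 bases between them. At most 2 mismatches in all were allowed, and the fixed C and G of each half-site had to match. The half-site reads the same on both strands. A gene with several windows counted if any of them held a pair. Such a pair was present for 3 of the 9 genes, Cdkn1a, Ccng1 and Bax, and for 4.71% of the 27025 genes with a window. The stretches are printed 5′ to 3′ on the strand of the gene, with every base that belongs to such a half-site in capitals.
Cdkn1a: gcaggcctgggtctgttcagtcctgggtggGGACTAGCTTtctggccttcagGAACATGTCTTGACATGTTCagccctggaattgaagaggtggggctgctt
Ccng1: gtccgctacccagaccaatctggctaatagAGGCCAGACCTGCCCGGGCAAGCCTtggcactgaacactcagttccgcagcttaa
Bax: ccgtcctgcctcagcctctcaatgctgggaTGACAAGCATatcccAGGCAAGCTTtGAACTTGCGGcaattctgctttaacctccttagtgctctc
The Cdkn1a stretch lies at chr17:29090876-29090977 on the plus strand and its capitals, with 0 mismatches in the best pair, span bases -73 to -32 from the start site. The Ccng1 stretch lies at chr11:40755432-40755516 on the minus strand and its capitals, with 1 mismatch in the best pair, span bases -200 to -176. The Bax stretch lies at chr7:45467049-45467144 on the minus strand and its capitals, with 2 mismatches in the best pair, span bases -216 to -181. A match describes these letters only, and a window without one says nothing of sites elsewhere in the gene.

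In adenoma epithelium most of the 10 genes stood higher in the CIN_high library. There, 6 of the 10 were at least 1.5-fold higher and none was 1.5-fold lower, beside 4.16% higher and 7.7% lower among all 13304 genes measured, that is, with a UMI in at least 2% of the cells of one library. The median log2 ratio, CIN_high over CIN_low, was 0.81 over the 10 genes and -0.10 over all measured genes. The list was chosen with earlier results of these data known, so these contrasts are a description only. The cells compared were 1316 in the CIN_high and 1725 in the CIN_low library. A level here averages, over cells, the UMIs of a gene per 10000 UMIs of the cell, and each interval is the exact 95% interval of the ratio of summed UMIs. Gene coordinates are on GRCm38. Levels are not per transcript length, so they are compared between libraries and cell types, not between genes.

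The genes of arrest and growth control were among those past the 1.5-fold line. Cdkn1a (chr17:29090976-29100727), which encodes the cyclin-dependent kinase inhibitor p21, had a level of 4.90 in CIN_high and 2.76 in CIN_low epithelium, a ratio of 1.78 (interval 1.72 to 1.82). Ccng1 (chr11:40748552-40755311) encodes cyclin G1, which brings a phosphatase to Mdm2; its level was 1.38 in CIN_high and 0.536 in CIN_low epithelium, a ratio of 2.57 (2.39 to 2.68). Phlda3 (chr1:135766119-135769136), whose product competes with the kinase Akt for membrane lipids, had a level of 1.33 in CIN_high and 0.536 in CIN_low epithelium, a ratio of 2.49 (2.29 to 2.56). All 3 intervals lie above 1.5. Ddit4l (chr3:137621612-137628333), a relative of the mTORC1 inhibitor Redd1, was scarce, with a level of 0.196 in CIN_high and 0.0610 in CIN_low epithelium, a ratio of 3.21 (2.98 to 4.19), or 2.62 with cells thinned to 5000 UMIs.

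Mdm2 (chr10:117688875-117710758), the feedback inhibitor, had a level of 0.943 in CIN_high and 0.678 in CIN_low epithelium. Its ratio of 1.39 (1.32 to 1.49) stayed below the 1.5-fold line, and over the alternative settings it ran from 1.27 to 1.57.

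The death genes were divided. Eda2r (chrX:97333840-97377216), a receptor of the tumour necrosis factor receptor family, had a level of 0.319 in CIN_high and 0.102 in CIN_low epithelium, a ratio of 3.12 (2.70 to 3.55). Aen (chr7:78895854-78911209), an apoptosis-enhancing nuclease, had a level of 0.551 in CIN_high and 0.318 in CIN_low epithelium, a ratio of 1.73 (1.61 to 1.91). Both were past the line. Bax (chr7:45461697-45466898), which opens pores in the mitochondrial membrane, had a level of 3.14 in CIN_high and 2.098 in CIN_low epithelium, and its ratio of 1.49 (1.44 to 1.53) lay just under the line; over the alternative settings it ran from 1.48 to 1.57. Trp53inp1 (chr4:11156431-11174379), a stress protein of autophagy and cell death, had a level of 1.77 in CIN_high and 1.34 in CIN_low epithelium, a ratio of 1.32 (1.31 to 1.43). Fas (chr19:34290666-34327772), the death receptor for Fas ligand, was the exception in direction, with a level of 0.0458 in CIN_high and 0.0667 in CIN_low epithelium and a ratio of 0.687 (0.617 to 0.996).

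Other signals moved between the 2 libraries in the same epithelial cells. The summed level of 10 myeloid markers was 9.89 in CIN_high and 22.9 in CIN_low epithelium, with 6 of 10 at least 1.5-fold lower, beside 7.7% of measured genes. Since Fas is high in myeloid cells, these values stand beside its ratio; their part in it was not tested. Fibroblast markers summed to 0.581 in CIN_high and 0.0300 in CIN_low epithelium, with all 5 measured markers higher; Phlda3 had a level of 1.24 in CIN_high fibroblasts, and the part of these markers in its ratio was not tested. Without cells that held a UMI of Ptprc, Col1a1, Col3a1 or Dcn, 6 of the 10 genes were again past the line. Genes of dissociation stress summed to 67.2 in CIN_high and 76.0 in CIN_low epithelium, with 2 of 16 lower and none higher, beside 7.7% and 4.16% of measured genes.

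**Figure D1:**
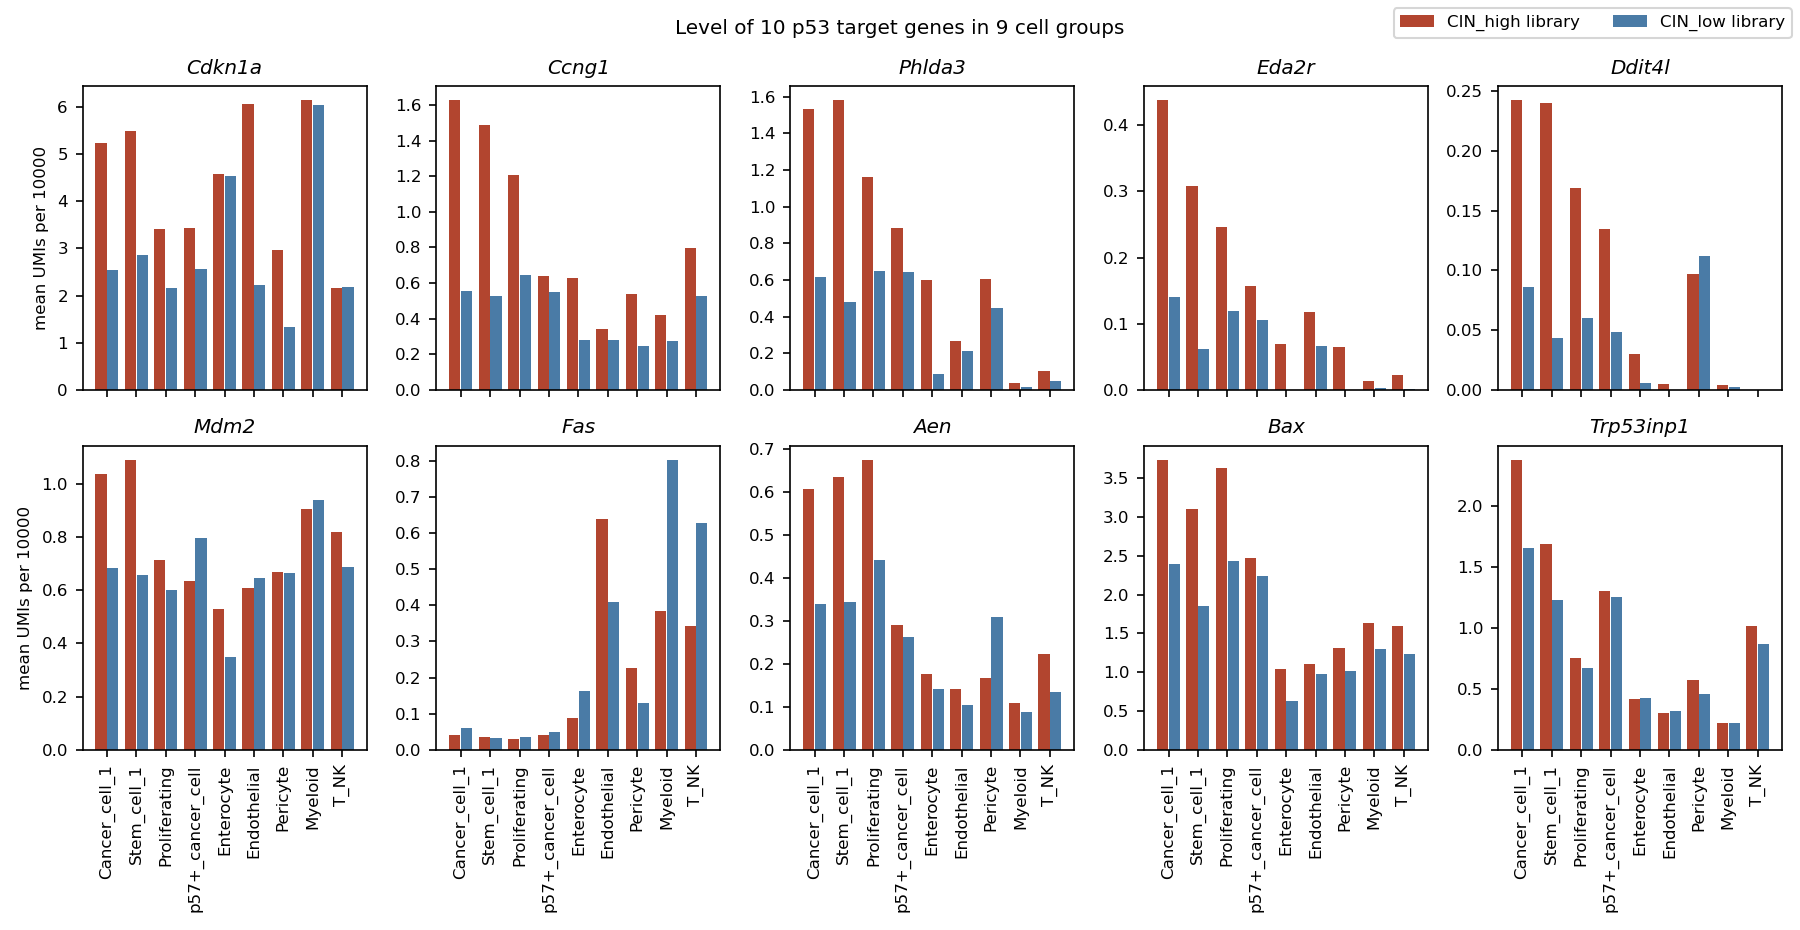
Mean UMIs per 10000 (linear axis from 0, its own scale in each panel) of the 10 genes in the 5 epithelial subtypes and 4 other types that had 50 or more cells per library; red bars are the CIN_high library, blue bars the CIN_low library, 1 library each and so no error bar. Phlda3, Eda2r and Ddit4l are near 0 in myeloid cells, Fas is low in the epithelial subtypes, and Cdkn1a is high in myeloid cells of both libraries.

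The difference between the libraries was seen within subtypes and varied among them. Subtypes with fewer than 50 cells in either library were not compared. These were Secretory_cell (54 CIN_high and 48 CIN_low cells), Complement+_stem_cell (39 and 85), S100a8/s100a9+_cell (8 and 36) and Igfbp+_cell (25 and 0). In Cancer_cell_1, the largest subtype (549 CIN_high and 710 CIN_low cells), 8 of the 10 genes were at least 1.5-fold higher, beside 5.98% of all measured genes, and none was lower, beside 8.48%. In Stem_cell_1 (346 and 338 cells) it was also 8 of 10, beside 8.73%, with none lower, beside 13.1%. The 2 genes under the line in both subtypes were Fas and Trp53inp1. Fas had a ratio of 0.671 in Cancer_cell_1, but 1.00 (0.636 to 1.56) by summed UMIs, and of 1.13 in Stem_cell_1. Its lower level in the whole epithelium was thus not seen in each subtype. Eda2r had a level of 0.308 in CIN_high and 0.0620 in CIN_low Stem_cell_1 cells, a ratio of 4.96 (3.08 to 5.996). Ddit4l had a level of 0.241 in CIN_high and 0.0438 in CIN_low Stem_cell_1 cells, a ratio of 5.49 (3.34 to 7.27). Mdm2 passed the line in these 2 subtypes, with a ratio of 1.52 (1.43 to 1.75) in Cancer_cell_1 and 1.66 (1.46 to 1.88) in Stem_cell_1.

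In Proliferating cells (111 CIN_high and 199 CIN_low cells) 6 of 10 genes were past the line, beside 11% of measured genes, with none lower, beside 13.8%. The ratios were smaller than in Stem_cell_1 for each of the 10. They were smaller than in Cancer_cell_1 for all but Ddit4l (2.82 against 2.81) and Fas (0.851 against 0.671). Cdkn1a had a level of 3.403 in CIN_high and 2.16 in CIN_low Proliferating cells, a ratio of 1.58, but its ratio of summed UMIs was 1.29 (1.19 to 1.40), and by summed UMIs 4 of the 10 genes were past the line. In p57+_cancer_cell (77 and 211 cells) only Ddit4l was past the line, 1 of 10 beside 16.9% of measured genes, on 11 UMIs in the CIN_high and 12 in the CIN_low library, and none was lower, beside 16.1%. By summed UMIs it was 3 of the 10 genes. Whether ratios differ between subtypes was not tested.

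Enterocytes (107 CIN_high and 98 CIN_low cells) had a different pattern. There 6 genes were higher, beside 15.9% of measured genes, and 1 was lower, beside 23.4%. Phlda3 had a level of 0.598 in CIN_high and 0.0860 in CIN_low enterocytes, a ratio of 6.95 (4.76 to 18.7). Cdkn1a did not follow it, with a level of 4.57 in CIN_high and 4.53 in CIN_low enterocytes. Eda2r had 12 UMIs in CIN_high and 0 in CIN_low enterocytes, which is at least 3.87-fold higher against a floor of 3 UMIs over the group. Ddit4l had 5 UMIs in CIN_high and 2 in CIN_low enterocytes, too few to place its ratio of 5.58 (0.512 to 32.8). By summed UMIs 5 genes were past the line, with Mdm2 just under it. The gene that was lower was Fas, with a ratio of 0.534 (0.265 to 0.975); myeloid markers summed to 14.4 in CIN_high and 41.5 in CIN_low enterocytes, and their part was not tested.

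**Figure D2:**
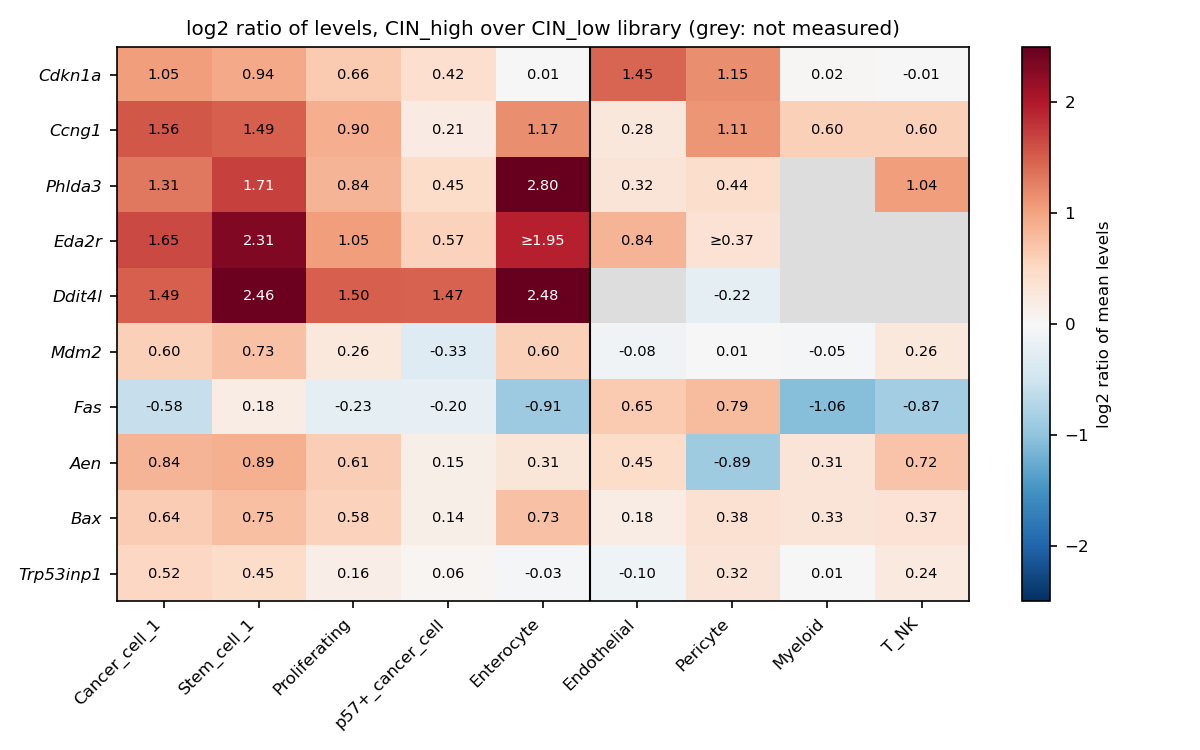
Log2 ratio of levels, CIN_high over CIN_low library, for the 10 genes (rows) in 5 epithelial subtypes (left of the line) and 4 other types (right of it); red is higher in CIN_high, grey is not measured, and ≥ marks a ratio against 0 UMIs. Cancer_cell_1 and Stem_cell_1 are red for 8 genes past 1.5-fold (0.58 on this scale), p57+_cancer_cell for 1, and Fas is red in endothelial cells but blue in myeloid cells.

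Outside the epithelium fewer of the 10 genes passed the line than in epithelium as a whole, though most measured ones had ratios above 1. Their median log2 ratio was 0.32 in endothelial cells, 0.38 in pericytes and 0.31 in T_NK cells. All measured genes had -0.06, 0.03 and -0.02 in these types. In myeloid cells it was 0.02, beside 0.22 over all measured genes. In endothelial cells (602 CIN_high and 247 CIN_low cells) 9 were measured and 3 were higher, beside 12.8% of measured genes, and none was lower, beside 19.6%. Cdkn1a was one, with a level of 6.07 in CIN_high and 2.22 in CIN_low endothelial cells, a ratio of 2.74 (2.01 to 2.53 for summed UMIs, whose own ratio was 2.25). Fas was another, with a level of 0.641 in CIN_high and 0.410 in CIN_low endothelial cells, a ratio of 1.56 (1.03 to 1.87); the third was Eda2r, with 22 UMIs in the CIN_high and 9 in the CIN_low library. By summed UMIs, Fas at 1.38 and Eda2r at 1.35 were under the line and Aen at 1.55 was past it, so Cdkn1a alone was past it both ways. Mdm2, Bax and Trp53inp1 had endothelial ratios between 0.932 and 1.13. Myeloid markers summed to 13.3 in CIN_high and 60.9 in CIN_low endothelial cells, all 10 lower, while Fas was higher there.

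In pericytes (83 CIN_high and 58 CIN_low cells) 3 genes were higher, beside 25.8% of measured genes, and 1 was lower, beside 23.2%, so the counts are near the background. The 3 were Cdkn1a, Ccng1 and Fas, and the lower one was Aen on 7 UMIs in CIN_high and 15 in CIN_low cells. By summed UMIs Fas, at 1.24, was under the line, and Eda2r and Trp53inp1 were past it. Genes of dissociation stress summed to 243 in CIN_high and 190 in CIN_low pericytes, with 7 of 16 higher; their part was not tested.

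Myeloid cells held many Cdkn1a molecules in both libraries. Its level was 6.14 in CIN_high and 6.05 in CIN_low myeloid cells (2930 and 5348 cells), the highest of the types and subtypes compared, though close to the 6.07 of CIN_high endothelial cells. Its ratio was 1.01 (0.996 to 1.04). Of the 7 genes measured there, Ccng1 alone was higher, at 1.52 (1.33 to 1.59), beside 7.83% of measured genes; by summed UMIs it was under the line, at 1.46, and the median log2 ratio of all measured genes was itself 0.22 there. Fas alone was lower, beside 3.3%: its level was 0.384 in CIN_high and 0.802 in CIN_low myeloid cells, a ratio of 0.478 (0.433 to 0.531). The myeloid marker list itself summed to 562 in CIN_high and 942 in CIN_low myeloid cells, with 5 of 10 lower; the part of the myeloid mix in the Fas ratio was not tested.

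In T_NK cells (234 CIN_high and 414 CIN_low cells) 8 genes were measured, with 3 higher, beside 13.4% of measured genes, and 1 lower, beside 16.8%. By summed UMIs 1 was higher, Phlda3, and the lower gene, Fas, had a ratio of 0.812 in place of 0.548 (0.531 to 1.22). Cdkn1a had a level of 2.17 in CIN_high and 2.18 in CIN_low T_NK cells. Fibroblasts (966 and 21 cells) and B cells (40 and 93 cells) had too few cells in 1 library to compare. Trp53inp1 had its highest level of the CIN_low library in B cells, 5.35, against 1.65 in Cancer_cell_1 cells of that library.

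Phlda3, Eda2r and Ddit4l were rarely detected in myeloid cells. With every cell thinned to 2000 UMIs, Phlda3 was detected in 20.5% of epithelial cells that were CIN_high and 8.92% that were CIN_low, and in 0.463% of CIN_high and 0.261% of CIN_low myeloid cells. Eda2r was detected in 5.85% of epithelial cells that were CIN_high and 2.68% that were CIN_low, and in 0.232% of CIN_high and 0.0201% of CIN_low myeloid cells. Ddit4l was detected in 3.66% of epithelial cells that were CIN_high and 1.11% that were CIN_low, and in 0.0772% of CIN_high and 0.0603% of CIN_low myeloid cells. All epithelial shares lie above the myeloid ones. Myeloid cells were not alone in a low share: Phlda3 was detected in 5.21% of CIN_high and 3.94% of CIN_low endothelial cells. Without thinning, Ddit4l was seen in 21.5% of epithelial cells that were CIN_high and 8.93% that were CIN_low, and in 0.171% of CIN_high and 0.0935% of CIN_low myeloid cells, whose median depths were 5721.5 and 6171 UMIs. No T_NK cell held a Ddit4l UMI; after thinning, 0 of 179 CIN_high and 0 of 324 CIN_low cells allow, by the 3-count limit, up to 1.68% of CIN_high and 0.926% of CIN_low T_NK cells with a UMI at that depth. Fas ran the other way: it was detected in 0.935% of epithelial cells that were CIN_high and 1.63% that were CIN_low, against 12.1% of CIN_high and 7.88% of CIN_low endothelial cells.

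Whether the genes are high in the same cells was asked within each library. Each epithelial cell was thinned to 5000 UMIs, which left out 109 CIN_high and 102 CIN_low cells, and the number of the 10 genes with a UMI was counted. A CIN_high epithelial cell showed 3.63 of the 10 on average (SD over cells 1.80) and a CIN_low cell 2.54 (SD 1.47). At least 5 genes were seen in 32.1% of CIN_high cells (exact interval 29.5% to 34.9%) and in 9.80% of CIN_low cells (8.39% to 11.3%). Without thinning the means were 5.43 in CIN_high and 4.47 in CIN_low cells.

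The summed count was higher at the low end, the middle and the high end of the CIN_high cells. In Cancer_cell_1 the 10 genes together had 2, 8 and 16 UMIs at the 10th percentile, the median and the 90th percentile of CIN_high cells, against 1, 4 and 9 in CIN_low cells. In Stem_cell_1 these were 2, 7 and 14 in CIN_high cells, against 1, 4 and 8 in CIN_low cells. The 10% of Cancer_cell_1 cells with the highest sums held 23.5% of the summed UMIs in the CIN_high and 26.6% in the CIN_low library. In p57+_cancer_cell the mean number of genes seen was 2.61 in CIN_high and 2.36 in CIN_low cells.

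**Figure D3:**
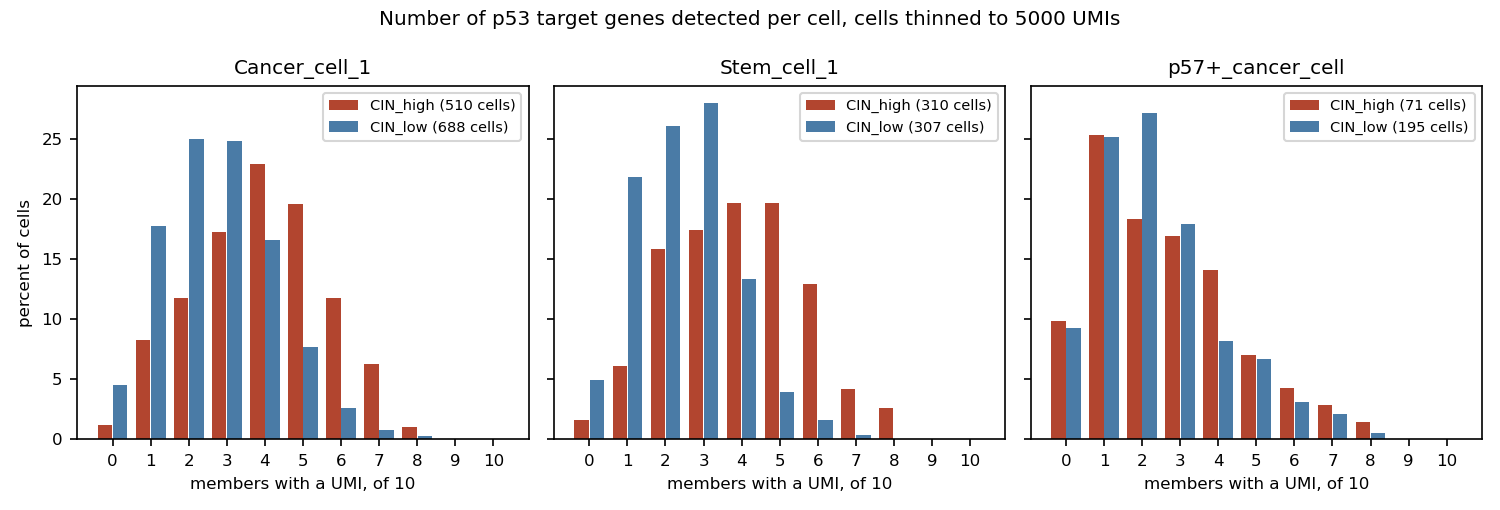
Percent of cells (vertical axis) by the number of the 10 genes with a UMI (horizontal axis) in 3 epithelial subtypes, cells thinned to 5000 UMIs; red is CIN_high, blue CIN_low. In Cancer_cell_1 and Stem_cell_1 the CIN_high bars are highest at 4 and 5 genes, with a median of 4, and the CIN_low bars at 2 and 3. In p57+_cancer_cell the bars of both libraries lie mostly between 1 and 3.

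Within a library the genes tended to be detected in the same cells, by a small margin, though not in CIN_low enterocytes. For each pair the cells with both genes were divided by the number given by multiplying their shares, keeping pairs with at least 5 cells expected. In Cancer_cell_1 the median was 1.11 for CIN_high cells, with 36 of 41 pairs above 1, and 1.08 for CIN_low cells, with 28 of 38 above 1. In Stem_cell_1 it was 1.13 for CIN_high cells, with 34 of 35 above 1, and 1.06 for CIN_low cells, with 18 of 23. In p57+_cancer_cell, it was 1.30 for CIN_high cells, with 15 of 15 above 1, and 1.27 for CIN_low cells, with 18 of 19. In Proliferating cells it was 1.12 for CIN_high cells, with 22 of 27 above 1, and 1.14 for CIN_low cells, with 21 of 23. In enterocytes it was 1.06 for CIN_high cells, with 9 of 13 above 1, and 0.993 for CIN_low cells, with 2 of 5. These medians and counts were not taken for pairs of other genes with similar shares. Whether the listed genes exceed such pairs was therefore not tested. Thinning draws UMIs at random, so it was repeated with 20 other draws: the Cancer_cell_1 median ran from 1.08 to 1.14 in CIN_high and from 1.08 to 1.19 in CIN_low cells. In Stem_cell_1 it ran from 1.07 to 1.16 in CIN_high and from 1.01 to 1.16 in CIN_low cells, where 12 to 22 pairs were above 1.

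The arrest gene Cdkn1a and Ccng1 are an example of this tie, which differed among pairs. Over the 20 draws Ccng1 was seen in 51.9% to 58.9% of CIN_high Cancer_cell_1 cells with a Cdkn1a UMI and in 28.1% to 38.9% of those without. In CIN_low Cancer_cell_1 cells it was seen in 20.3% to 28.4% with and 15.0% to 21.9% without. These ranges meet, but observed over expected was above 1 in each draw (1.07 to 1.25). The draws reuse the same cells, so the ranges show the thinning and not the spread between cells. In Stem_cell_1 the ranges met in both libraries. Observed over expected ran there from 1.01 to 1.08 in CIN_high and from 0.959 to 1.28 in CIN_low cells. Mdm2 was seen in 33.2% to 43.1% of CIN_high Cancer_cell_1 cells with Cdkn1a and 23.0% to 36.3% without. These ranges also meet, with observed over expected from 1.001 to 1.11. Cdkn1a and Phlda3 were tied in both libraries of Cancer_cell_1. Phlda3 was seen in 48.6% to 55.9% of CIN_high cells with Cdkn1a and 22.0% to 33.9% without. In CIN_low cells it was seen in 26.4% to 31.4% with Cdkn1a and 13.8% to 19.2% without. In CIN_low Stem_cell_1 cells observed over expected of this pair ran from 0.919 to 1.23. Ccng1 and Phlda3 were also tied in both libraries of Cancer_cell_1. Phlda3 was seen in 51.3% to 63.7% of CIN_high cells with Ccng1 and 34.1% to 41.0% without. In CIN_low cells it was seen in 28.6% to 44.8% with Ccng1 and 18.0% to 23.2% without. In CIN_low Stem_cell_1 cells these ranges met, at 19.4% to 36.1% with and 13.4% to 21.3% without. Observed over expected ran from 1.03 to 1.93 there. The variance of the number of genes per cell was 1.67 times that of unlinked genes in CIN_high and 1.41 times in CIN_low Cancer_cell_1 cells, and 1.82 times in CIN_high and 1.26 times in CIN_low Stem_cell_1 cells.

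**Figure D4:**
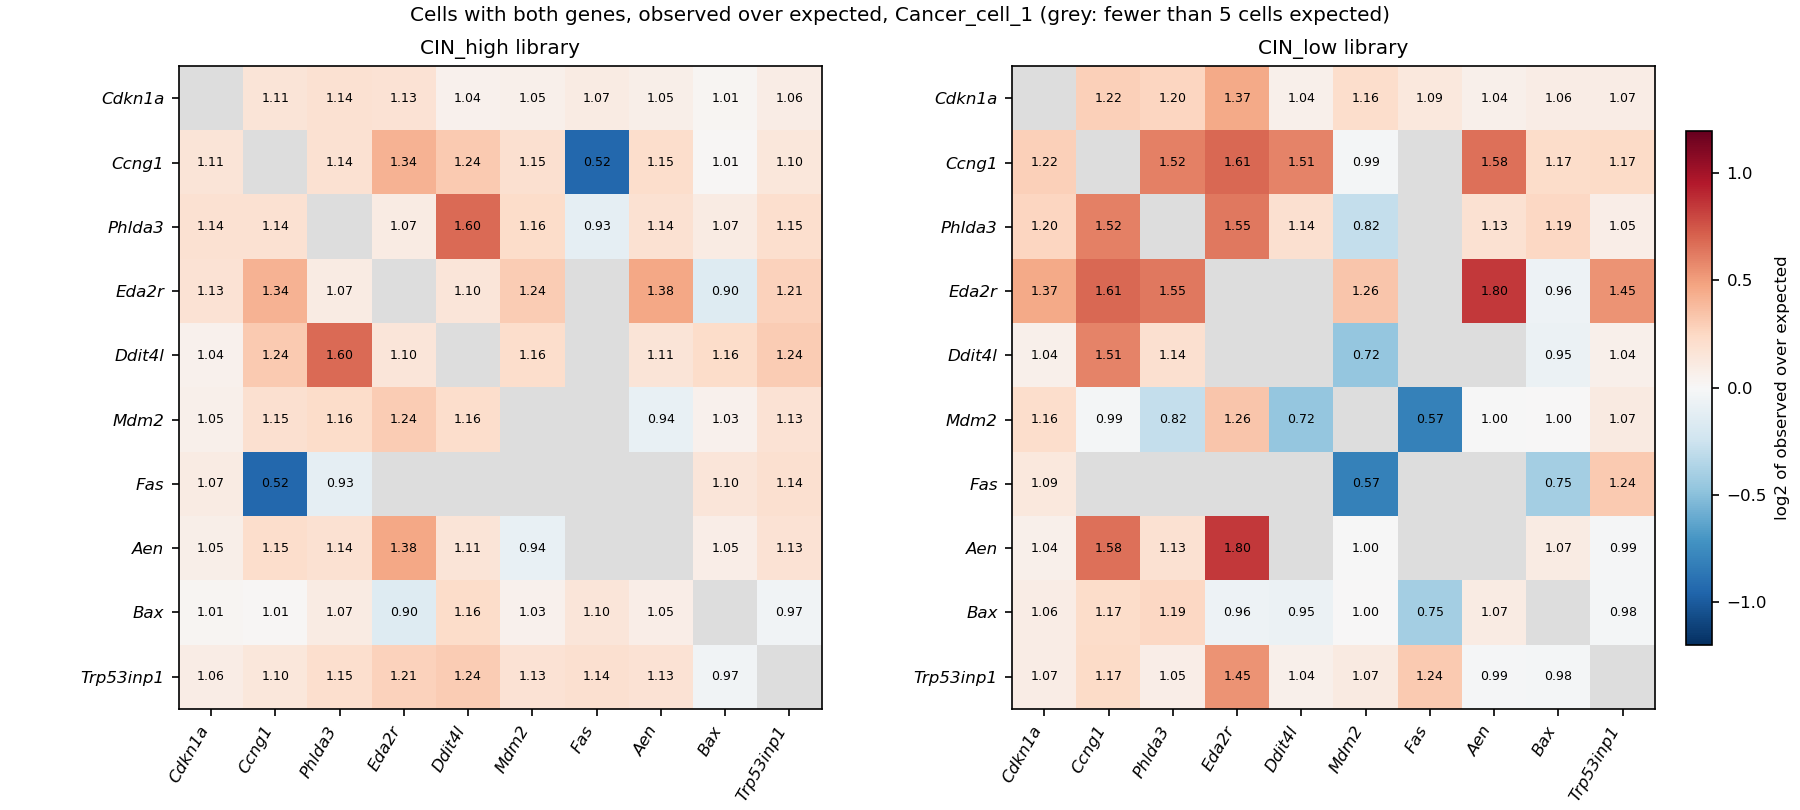
Cells holding both genes of a pair, observed over expected (printed, with colour on a log2 scale), in Cancer_cell_1 cells thinned to 5000 UMIs; the CIN_high library is on the left and the CIN_low library on the right, and grey marks the diagonal and pairs with fewer than 5 cells expected. Most pairs are above 1 in both panels (36 of 41 and 28 of 38), and the pairs below 0.6 involve Fas, each with 3 cells observed.

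Correlation over cells gave the tie of each gene with the rest. The r of each gene with the sum of the other 9, on ln(1 + UMIs per 10000), is a description of cells that share 1 library and a depth fixed by thinning. As a yardstick, each of 5993 other genes in CIN_high and 6166 in CIN_low Cancer_cell_1 cells was correlated with the sum of the 10, and 90% lay between -0.08 and 0.10 in CIN_high and between -0.07 and 0.07 in CIN_low cells. Cdkn1a had a median r over the 20 draws of 0.42 (0.35 to 0.46) in CIN_high and 0.25 (0.19 to 0.31) in CIN_low Cancer_cell_1 cells. Phlda3 had 0.36 (0.29 to 0.42) in CIN_high and 0.27 (0.23 to 0.34) in CIN_low cells, and Ccng1 had 0.34 (0.28 to 0.40) in CIN_high and 0.26 (0.19 to 0.31) in CIN_low cells. In each draw these 3 genes lay above the upper end of that range.

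Other genes were tied less. Mdm2 had a median r of 0.21 (0.14 to 0.25) in CIN_high and 0.05 (-0.01 to 0.11) in CIN_low Cancer_cell_1 cells. Fas had 0.03 (-0.04 to 0.11) in CIN_high and 0.00 (-0.06 to 0.05) in CIN_low cells, on 12 CIN_high and 19 CIN_low cells with a UMI. In CIN_low Stem_cell_1 cells the values were low and moved with the draw: Cdkn1a had 0.12 (0.00 to 0.18) there, against 0.34 (0.30 to 0.40) in CIN_high Stem_cell_1 cells. In Cancer_cell_1 every gene but Fas also had the lower level in the CIN_low library; the part of the level in the difference in r was not tested.

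**Figure D5:**
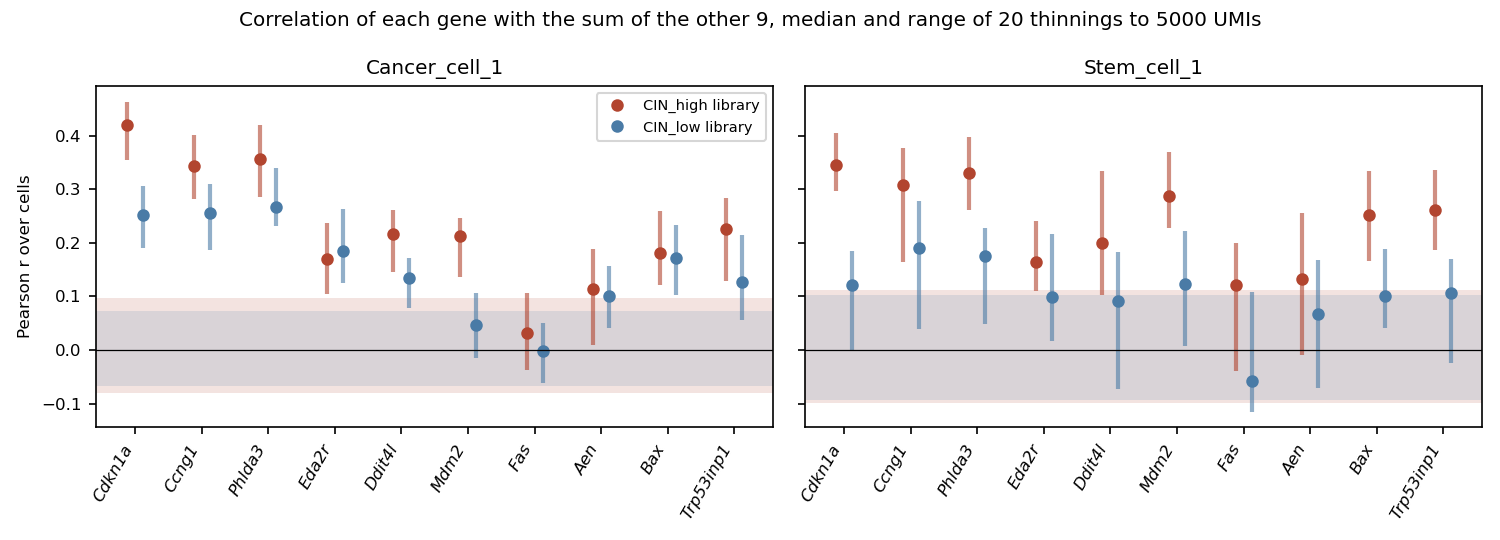
Pearson r over cells of each gene with the sum of the other 9, in Cancer_cell_1 (left) and Stem_cell_1 (right); points are medians and lines the range of 20 thinnings to 5000 UMIs, and the bands hold the middle 90% of all other genes (red CIN_high, blue CIN_low). Cdkn1a, Ccng1 and Phlda3 lie above the bands in Cancer_cell_1 in both libraries. The medians of Fas lie within them there, but Fas was seen in only 2.35% of CIN_high and 2.76% of CIN_low cells.

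Genes outside the list whose levels followed the sum of the 10 in Cancer_cell_1 were ranked by the smaller of their 2 library correlations. The ranking ran over the 5760 genes that met the 10% limit above in both libraries. The first 5 were Ptp4a3, a phosphatase and reported p53 target, at 0.22; Psrc1, a spindle protein, at 0.21; Ephx1, an epoxide hydrolase, at 0.16; S100a10, an annexin partner, at 0.16; and Cd81, a tetraspanin, at 0.16. The ranking moved with the draw: among the first 5 in 20 other draws were Ptp4a3 in 19, S100a10 in 14, Ephx1 in 11, Psrc1 in 10 and Cd81 in 2. Zmat3, an RNA-binding p53 target, was among them in 16 draws and Cdkn2a, which encodes the Mdm2 inhibitor Arf and the kinase inhibitor p16, in 11; both are named after their values were seen.

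Among 30 other p53 targets, all measured in epithelium, 5 were at least 1.5-fold higher, beside 4.16% of measured genes, and none lower, beside 7.7%. Their median log2 ratio was 0.15, beside -0.10 over all measured genes. The 3 with the largest ratios were Polk, a translesion polymerase, at 2.26; Zfp365 at 2.098; and Zmat3 at 1.96. None of the 12 measured regulators was past the line in either direction, beside the same shares. Trp53, the gene of p53 itself, had a level of 1.19 in CIN_high and 1.42 in CIN_low epithelium, a ratio of 0.839, and Mdm4, an Mdm2 relative that blocks p53, had a ratio of 1.13. The lowest ratios were those of Atr, a damage kinase, at 0.799, Cd80 at 0.820 and Tigar at 0.836.

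Cell cycle genes followed no common order over cells with 1, 2 and 3 or more p53 targets. In CIN_high Cancer_cell_1 cells 20 genes of G2 and mitosis summed on average to 3.57 UMIs per 10000 in 42 cells with 1 target, 1.63 in 60 cells with 2 and 2.06 in 402 cells with 3 or more. In CIN_low Cancer_cell_1 cells they summed to 2.11 in 122 cells with 1 target, 2.34 in 172 cells with 2 and 2.77 in 363 cells with 3 or more. With 5 or more targets against 3 or 4, the mean sums were 1.91 and 2.20 in CIN_high and 2.49 and 2.84 in CIN_low cells. In Stem_cell_1 they were 1.67 and 2.70 in CIN_high and 1.33 (18 cells) and 3.43 in CIN_low cells. Proliferating cells had the opposite order in CIN_high, 52.4 and 46.7, but not in CIN_low, 41.25 and 56.8. In Cancer_cell_1 and Stem_cell_1, S phase genes also had lower means with 5 or more in both libraries. Cancer_cell_1 cells with a UMI of Cdkn1a, the arrest gene, had a mean G2 and mitosis sum of 1.92 and those without of 2.81 in the CIN_high library. In the CIN_low library the sums were 2.46 with and 2.65 without. Stem_cell_1 had the same direction, with 1.97 with and 3.54 without in CIN_high cells, against 2.84 with and 3.27 without in CIN_low cells. Some other genes of the 10 had the opposite order in Cancer_cell_1. For Ccng1 the sums were 2.19 with and 2.06 without in CIN_high cells, against 3.15 with and 2.34 without in CIN_low cells. For Mdm2 they were 2.52 with and 1.91 without in CIN_high cells, against 2.84 with and 2.42 without in CIN_low cells. In Stem_cell_1 both genes kept this order in CIN_low but not in CIN_high cells. There the sums were 2.06 with and 2.37 without for Ccng1, and 2.21 and 2.22 for Mdm2. Trp53inp1 had the order of Cdkn1a, with 1.76 and 2.62 in CIN_high and 2.13 and 2.89 in CIN_low Cancer_cell_1 cells. Eda2r and Ddit4l also had that order in both libraries of Cancer_cell_1. Bax, Aen and Fas had the opposite order in both, Fas on 12 CIN_high and 19 CIN_low cells with a UMI. For Bax the sums were 2.19 with and 1.90 without in CIN_high cells, against 2.73 with and 2.21 without in CIN_low cells. Phlda3 was split, with 1.71 with and 2.46 without in CIN_high cells, against 3.16 with and 2.36 without in CIN_low cells. Over all epithelium these 20 genes summed to 6.10 in CIN_high and 8.37 in CIN_low cells, with 10 of 20 at least 1.5-fold lower, beside 7.7% of measured genes, and none higher, beside 4.16%. Within Cancer_cell_1 it was 5 of 16 measured, beside 8.48%, and within Proliferating cells 0 of 20, beside 13.8%. Proliferating cells made up 111 of the 1316 epithelial cells in CIN_high and 199 of the 1725 in CIN_low, and their part in the epithelial count was not tested.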

How the data were processed

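The authors deposited 1 matrix of natural log values, ln(1 + UMIs per 10000 of the cell), judged from the values: the exponential minus 1 summed to 10000 in each cell. Per the submitters' processing notes, Cell Ranger 2.1.1, Seurat and the build mm10 were used; the sources used here do not give filters, doublet removal or free RNA treatment. UMIs were recovered as multiples of each cell's smallest non-zero value, and 100% of values came out whole within 0.01. Cell types, subtypes and classes are labels that the authors deposited for each cell. Summed UMIs came to 51868113 for CIN_high and 74733715 for CIN_low cells.

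Levels are means over cells. A gene counted as measured where 2% or more of the cells of either library held it, and was called at 1.5-fold, in groups of at least 50 cells in each library. Intervals (95%) are conditional binomial for ratios and Clopper-Pearson for shares, and cover counting error only. Cells were thinned to 5000 UMIs in epithelium and 2000 across types, each cell with its own random seed; 20 further draws were added after the thinned values were seen to move with the draw. Scrublet in Scanpy 1.11.5 marked 142 CIN_high cells (2.29%) and 249 CIN_low cells (3.15%) as doublets, kept except in an alternative. Levels, co-detection and thinning were tested on simulated data. Named genes outside the 10 are the 3 largest ratios each way among other p53 targets and regulators, Trp53 and Mdm4, and the 5 genes most alike. Members and lists were chosen with earlier results of these data known. Fitted tests were not used, since each class is 1 library.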

Additional observations from a re-analysis of the deposited data

Results flagged for a closer look

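Fas had ratios past 1.5-fold in opposite directions in different cell types. CIN_high over CIN_low, it was 1.56 in endothelial cells, 0.534 in enterocytes and 0.478 in myeloid cells, with each counting interval on its own side of 1. By summed UMIs the endothelial ratio was 1.38, under 1.5-fold, so the call on the higher side depends on the averaging. Aen also had opposite ratios past 1.5-fold, but its interval in pericytes, 0.181 to 1.37, covers 1. The difference between the cell types was not tested, since each class is 1 library.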

How the results depend on the processing

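No paired analysis was possible because each class is 1 library. The count of genes past 1.5-fold in epithelium was 6 and ran from 6 to 8 under the alternatives at that threshold, and was 4 at 2-fold. The 8 came from Cancer_cell_1 and Stem_cell_1 cells alone, an alternative chosen after seeing the data, as were leaving the 10 genes out of the total, leaving out shared barcodes and the 20 other draws. Of 120 alternative ratios of single genes, 107 stayed within the counting interval, 13 moved beyond it and 0 changed direction. With ratios of summed UMIs the count became 3 in p57+_cancer_cell, 0 in myeloid cells and 1 in T_NK cells, against 1, 1 and 3 with means over cells. It became 2 in endothelial cells and 4 in pericytes, against 3 in each with means over cells, and 4 in Proliferating cells and 5 in enterocytes, against 6 in each. The higher call of Fas was lost in endothelial cells and in pericytes; the cause was not tested. The mean number of genes per epithelial cell follows the depth: it was 2.72 in CIN_high and 1.76 in CIN_low cells thinned to 3000 UMIs, 5.06 in CIN_high and 3.79 in CIN_low cells thinned to 10000 UMIs, and 5.43 in CIN_high and 4.47 in CIN_low cells without thinning. The lowest of 20 other draws gave 2.46 in CIN_low cells. The CIN_high mean was above the CIN_low mean under each of these depths. The pairwise medians in Cancer_cell_1 stayed above 1 under the alternatives run. Fas, Ddit4l and Eda2r rest on few UMIs per cell, which limits what thinned cells can show of them.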
